A study of Homo sapiens with 6 samples.

Results

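Heparan sulfate is a long, negatively charged sugar chain that is attached to cell surface and matrix proteins such as syndecans and glypicans, where it binds growth factors, chemokines and proteases. In the Golgi, members of the exostosin family (EXT and EXTL) start and extend the chain by adding glucuronic acid and N-acetylglucosamine in turn. The bifunctional N-deacetylase-N-sulfotransferases (NDST) then replace the acetyl group of some N-acetylglucosamine units with sulfate, and the later epimerase and O-sulfotransferases act mainly near these units. Loss of 1 copy of EXT1 or EXT2 causes hereditary multiple exostoses, a disorder of bone growth.

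The 9 genes described here are the polymerases and related transferases EXT1, EXT2, EXTL1, EXTL2 and EXTL3 and the sulfotransferases NDST1, NDST2, NDST3 and NDST4. They were chosen by name, through the RefSeq accession that opens each probe set identifier. All 9 were in the table with 1 probe set each, out of 1259 probe sets that stood for 927 named genes. Expression had been measured in RKO, an established cell line from a human colon carcinoma, on 3 arrays of each of 2 populations. RKO C2 F3 (F3) was sorted by flow cytometry for low surface u-PAR (the urokinase receptor, a glycoprotein) out of RKO C2 (C2), which is itself a clonal population and the parent. F3 is called clonal on the array labels, and the series' design text calls it only a population, so each arm stands for 1 line. The study asked which glycosylation enzyme F3 lacks. No drug or other treatment is named for either population.

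Values were log2 expression after RMA, which normalizes arrays together and summarises the probes of a probe set. The medians of the 6 arrays were between 5.48 and 5.51. The precision is limited by the number of arrays. The labels do not say whether those of one population were separate cultures, and a p-value here covers only the spread of these samples, which may be technical. Of 11 genes listed as epithelial markers only MUC1, MUC2 and LGALS4 were on the table, with mean log2 levels of 4.71 to 7.11. The 3 measured leukocyte genes (of 8 listed) had mean levels of 3.25 to 4.83, and the 7 measured fibroblast and endothelial genes (of 9) had mean levels of 2.30 to 5.04. With so few epithelial markers, the table is a thin check of the label.

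None of the 9 genes passed the test between F3 and C2. In limma, with p-values adjusted by Benjamini-Hochberg across all 1259 probe sets, 0 rose and 0 fell at an adjusted p under 0.05, and 0 had an unadjusted p under 0.05. Over all probe sets 1 passed, or 0.0794% (0.159% with the replicate number as a block), and it was not one of the 9. The share of all probe sets with an unadjusted p under 0.05 was 5.4%. For none of the 9 did the 3 F3 arrays lie wholly above or below the 3 C2 arrays, a separation seen for 10.3% of all probe sets. The log2 changes, F3 minus C2, lay between -0.11 for EXT2 and 0.10 for NDST4, and the smallest adjusted p was 0.97. The 95% intervals of this fit, which has no replicate block, reached down to 0.774-fold (NDST2) and up to 1.24-fold (NDST1). Changes beyond those sizes were outside its interval for every gene.

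**Figure D1:**
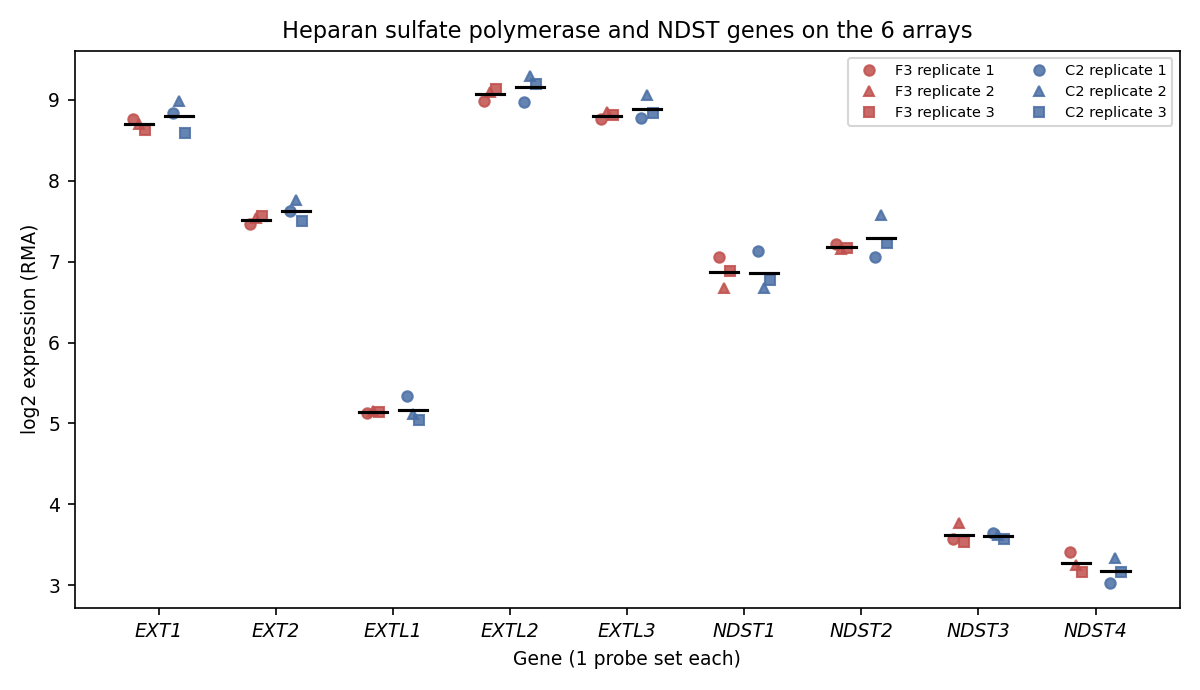
Log2 expression of the 9 genes on each array, with 3 F3 arrays to the left and 3 C2 arrays to the right for each gene; symbols mark the replicate number and black lines the group means. For every gene the arrays of the populations overlap, and C2 replicate 2 is the highest point for EXT1, EXT2, EXTL2, EXTL3 and NDST2.

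EXT1 and EXT2 encode the subunits of the heparan sulfate co-polymerase, which elongates the chain. EXT1 had log2 levels of 8.77, 8.70 and 8.62 on F3 replicates 1, 2 and 3, against 8.84, 8.98 and 8.59 on C2 replicates 1, 2 and 3. The lowest and the highest value both belonged to C2, so that the F3 arrays lay inside the C2 range. The log2 change was -0.11 (SE 0.10, 95% interval -0.33 to 0.11, limma adjusted p = 0.97). EXT2 had levels of 7.46, 7.53 and 7.56 in F3, against 7.63, 7.76 and 7.50 in C2. C2 replicate 3 fell among the F3 arrays, and the other C2 arrays were above them. Its change was also -0.11 (SE 0.07, 95% interval -0.28 to 0.06, limma adjusted p = 0.97), the smallest unadjusted p of the 9 genes at 0.17.

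The ratio of the co-polymerase subunits differed between the populations by less than its spread. Log2 EXT1 minus log2 EXT2 was 1.30, 1.16 and 1.06 on the F3 arrays, against 1.21, 1.22 and 1.09 on the C2 arrays. The means were 1.18 ± 0.12 in F3 and 1.18 ± 0.07 in C2 (SD, n = 3 each), a difference of 0.0012 with a two-sided exact permutation p of 1, where the smallest p that 3 against 3 arrays can give is 0.10. The size of the difference itself depends on the probes and does not say which subunit had more mRNA.

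EXTL3 encodes the transferase that adds the first N-acetylglucosamine to the linkage region and thereby commits the chain to heparan sulfate. It had log2 levels of 8.76, 8.85 and 8.81 in F3, against 8.77, 9.06 and 8.83 in C2. Only C2 replicate 2 was above the F3 range, and the F3 array was lower than the C2 array of the same number in 3 of 3 cases, with differences of -0.01, -0.21 and -0.03. Such a run of 3 lower pairs was seen for 17.8% of all probe sets. The change was -0.09 (SE 0.08, 95% interval -0.26 to 0.09, limma adjusted p = 0.97), and without C2 replicate 2 it was 0.00014.

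EXTL2 encodes an N-acetylglucosamine transferase that can cap the linkage region and stop chain growth. Its levels were 8.98, 9.10 and 9.13 in F3, against 8.97, 9.29 and 9.20 in C2. In both populations replicate 1 was the lowest array, and the change was -0.08 (SE 0.09, 95% interval -0.28 to 0.12). EXTL1, a family member with N-acetylglucosamine transferase activity in vitro, had levels of 5.13, 5.15 and 5.14 in F3, against 5.33, 5.12 and 5.04 in C2. The F3 arrays were nearly alike (SD 0.01), while the C2 arrays lay on both sides of them (SD 0.15), with a change of -0.02 (SE 0.08).

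NDST1 and NDST2 encode the broadly expressed N-deacetylase-N-sulfotransferases; NDST2 is the isoenzyme that mouse mast cells need to make heparin. NDST1 had log2 levels of 7.06, 6.68 and 6.88 in F3, against 7.14, 6.68 and 6.77 in C2. The order of the replicates was the same in both populations, with replicate 1 highest and replicate 2 lowest, so the gene varied between numbers and hardly between populations. Its within-group SD of 0.22 was above that of 98.3% of probe sets, and its differences within the 3 pairs were -0.08, -0.0039 and 0.11. Both arrays of number 1 being the highest of the 6 was seen among the 9 genes for NDST1 alone and for 8.34% of the table. The change was 0.01 (SE 0.13, 95% interval -0.29 to 0.31, limma adjusted p = 0.998), the widest SE of the 9 in this fit without a replicate block. With the replicate number as a block its SE was 0.056 (95% interval -0.13 to 0.14), the smallest of the 9.

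NDST2 had levels of 7.21, 7.16 and 7.17 in F3, against 7.06, 7.57 and 7.23 in C2. The F3 arrays again sat inside the C2 range, which ran from the lowest (replicate 1) to the highest (replicate 2) of the 6 arrays. The change of -0.11 (SE 0.12, 95% interval -0.37 to 0.16, limma adjusted p = 0.998) turned to 0.04 without C2 replicate 2. Log2 NDST1 minus log2 NDST2 was -0.15, -0.48 and -0.29 in F3, against 0.08, -0.89 and -0.45 in C2. The means were -0.31 ± 0.17 in F3 and -0.42 ± 0.49 in C2 (SD, n = 3 each). The difference was 0.12, with an exact permutation p of 0.80 (two-sided). It was well under the spread among C2 arrays, and was -0.12 without C2 replicate 2.

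NDST3 and NDST4 encode isoenzymes of more restricted expression. NDST3 had levels of 3.57, 3.76 and 3.54 in F3, against 3.65, 3.63 and 3.57 in C2. The change was 0.01 (SE 0.07, 95% interval -0.15 to 0.17), with F3 replicates on both sides of the C2 range. NDST4 had levels of 3.41, 3.25 and 3.16 in F3, against 3.03, 3.34 and 3.16 in C2. The highest and the lowest array both carried number 1, F3 above C2 by 0.38, while the other pairs differed by -0.08 and -0.0029. Its change was 0.10 (SE 0.09, 95% interval -0.11 to 0.31, limma adjusted p = 0.97), and 0.18 without C2 replicate 2 (limma adjusted p = 0.99).

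Across the family, mean log2 levels over the 6 arrays were 8.75 for EXT1, 7.57 for EXT2, 5.15 for EXTL1, 9.11 for EXTL2 and 8.85 for EXTL3. They were 6.87 for NDST1, 7.23 for NDST2, 3.62 for NDST3 and 3.23 for NDST4. Probes differ in how well they bind, so these levels give no order of mRNA abundance among isoenzymes. NDST3 and NDST4 lay among the dimmest 25% of probe sets, with mean levels under the bound of 3.80. There RMA compresses changes, and without a detection call neither gene can be called present or absent.

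The 4 NDST genes encode isoenzymes with the same pair of activities, and the 100 bases before their RefSeq start (GRCh38.p14, 5′ to 3′ on the gene's strand) are shown so that their promoters can be compared. Capitals mark CG dinucleotides, which read the same on both strands. The windows are chr5:150497679-150497778 (+) for NDST1, chr10:73811821-73811920 (-) for NDST2, chr4:118033222-118033321 (+) for NDST3 and chr4:115113621-115113720 (-) for NDST4.
NDST1: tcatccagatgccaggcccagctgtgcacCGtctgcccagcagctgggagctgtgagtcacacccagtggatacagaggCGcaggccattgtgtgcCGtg
NDST2: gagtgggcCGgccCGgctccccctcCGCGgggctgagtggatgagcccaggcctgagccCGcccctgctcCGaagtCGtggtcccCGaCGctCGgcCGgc
NDST3: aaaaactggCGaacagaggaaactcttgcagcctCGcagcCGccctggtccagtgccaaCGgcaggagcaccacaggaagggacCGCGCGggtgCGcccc
NDST4: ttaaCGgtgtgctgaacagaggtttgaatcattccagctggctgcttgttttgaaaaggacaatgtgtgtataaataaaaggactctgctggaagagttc

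The NDST2 window held 11 CG dinucleotides, that of NDST3 held 8, that of NDST1 held 3 and that of NDST4 held 1. Among all 35116 windows of this length in the RefSeq table the median was 5, and 84.3% held at least 1. NDST2 and NDST3 have 2 starts each in that table, of which the outermost is shown, and the arrays do not say which start RKO uses. The EXT2 window had 11, that of EXTL2 had 6 and that of EXTL1 had 1, and EXT2 has 3 starts in that table. At least 11 were found in 25.2% of all windows and at least 8 in 38.8%.

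**Figure D2:**
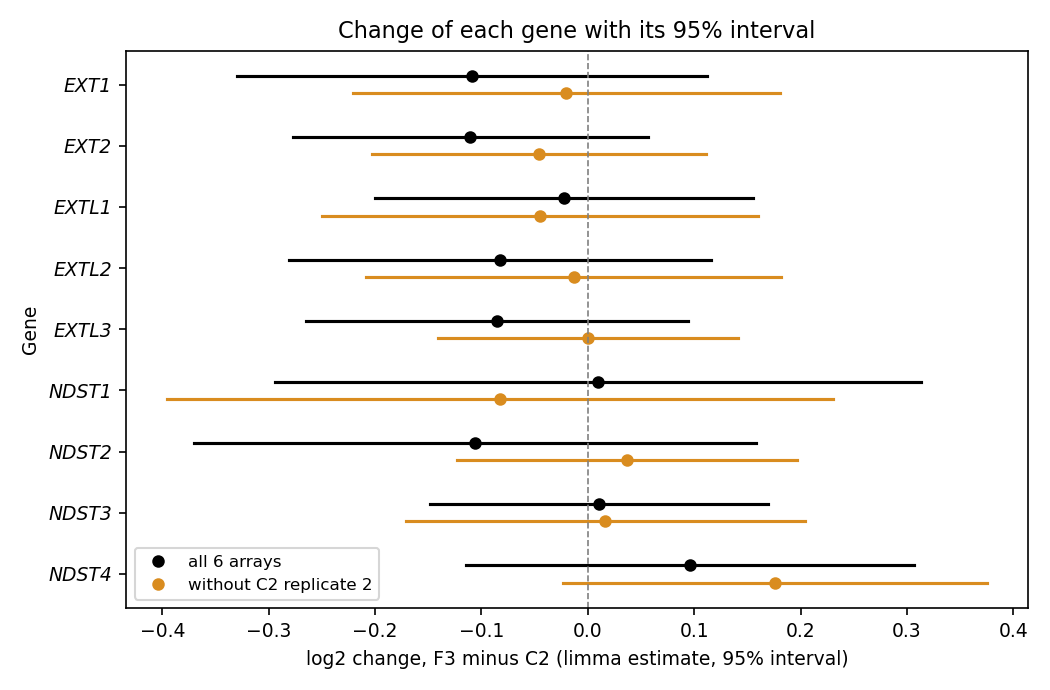
Log2 change, F3 minus C2, of each of the 9 genes (points) with its 95% interval (lines) from limma, with all 6 arrays (black) and without C2 replicate 2 (orange). Every interval crosses 0 in both settings; EXTL3 moves from -0.09 to 0.00014 and NDST2 from -0.11 to 0.04.

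For several genes the difference between the population means was smaller without 1 array, C2 replicate 2. C2 replicate 2 was the highest of the 6 arrays for 5 of the 9 genes (EXT1, EXT2, EXTL2, EXTL3 and NDST2). That array was the highest for 26.1% of all probe sets, and for 37.7% of the 629 whose mean was above the median of the table, a range that held 6 of the 9 genes, among them these 5. With all arrays 6 of the 9 changes were negative, and so were 54.6% of all changes. Without C2 replicate 2 the number was 5 of 9, against 51.3% of all, and EXT1 was at -0.02, EXT2 at -0.05 and EXTL2 at -0.01. Leaving out the highest C2 array of a gene raises its change by construction. Over single arrays left out in turn these 3 values were the highest. The lowest were -0.22 for EXT1 and -0.18 for EXT2 (without C2 replicate 3) and -0.17 for EXTL2 (without C2 replicate 1). The SD over the 3 arrays was larger in C2 than in F3 for 8 of the 9 genes (all but NDST3), where 50.1% of all probe sets had the larger SD in C2. The RNA quality of C2 replicate 2 is not given, and its part in these values was not tested.

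**Figure D3:**
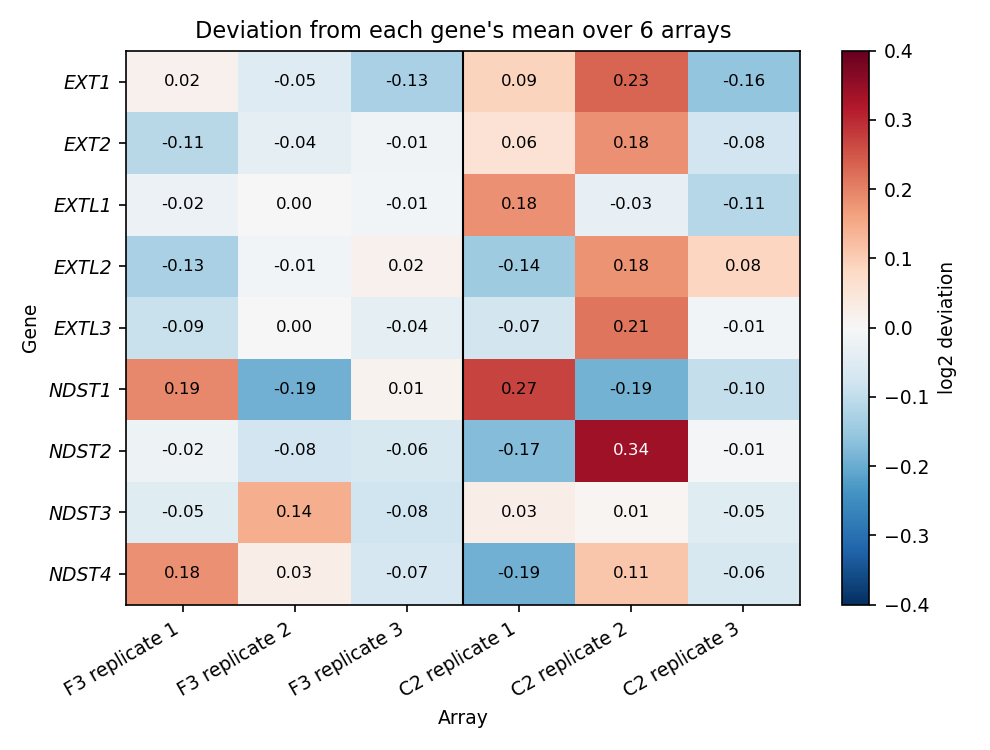
Deviation of each array from the gene's mean over the 6 arrays (log2; red above, blue below), with F3 arrays left and C2 arrays right of the black line. C2 replicate 2 is 0.18 to 0.34 above the mean for EXT1, EXT2, EXTL2, EXTL3 and NDST2 and 0.19 below it for NDST1.

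Genes whose pattern over the 6 arrays was most like that of a family member were sought among the 926 other named genes. The result is a description only. Each r was picked as one of the highest of many, over only 6 arrays that share RMA normalization and a pair structure. The part of these in the r values was not tested. EXTL2 was most like MGAT4A (r = 0.99), an N-glycan branching enzyme, and COG6 (0.99), a subunit of a Golgi tethering complex. EXTL3 had an r of 0.98 with SDC1, a syndecan gene (0.84 without C2 replicate 2), and it had 48 genes above an r of 0.9. EXT2 was most like FUCA1 (0.97), a lysosomal fucosidase, and IL4R (0.96), which were at 0.93 and 0.88 without C2 replicate 2. EXT1 was most like the galactosyltransferase gene B4GALT3 (0.96) and CTSA (0.96), a lysosomal protease. Without that array these were 0.94 and 0.89. NDST2 was most like ST3GAL3 (0.97), a sialyltransferase gene, and PDGFA (0.96); without C2 replicate 2 these were 0.77 and 0.60. NDST1, with 6 genes above 0.9, was most like BMP5 (0.94) and ERH (0.94). Within the family, EXTL3 and NDST2 were most alike (r = 0.92, n = 6 arrays), and both had their highest value on C2 replicate 2; without that array their r was 0.27.

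The steps before and after the polymerases likewise held no gene past the threshold. Of 64 other genes listed for the pathway 58 were measured. In limma the adjusted p was under 0.05 for 0 of them and the unadjusted p for 4. With the replicate number as a block these counts were 0 and 7, where 8.02% of all probe sets had an unadjusted p under 0.05. Of the 58 changes 38 were negative, beside 57.3% of all named genes, and without C2 replicate 2 the number was 27, beside 51.3%. The polymerase and NDST genes had a median log2 change of -0.08 (0 of 9 past the threshold), where all 927 named genes had a median of -0.01. Without C2 replicate 2 the median of the 9 was -0.013, and that of all named genes was -0.0038.

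The linkage region is the 4-sugar stem on which the chain is built. The 7 measured genes listed for it had a median change of -0.05, with 0 past the threshold. These 7 include B3GAT1 and B3GAT2, which are relatives of a linkage enzyme. XYLT2, which adds the xylose to the core protein, was at -0.10 (SE 0.07), and B3GALT6, which adds the second galactose, at -0.05 (SE 0.07). B3GAT2, a glucuronosyltransferase related to the linkage enzyme, had levels of 3.14, 3.19 and 3.29 in F3, against 3.31, 3.50 and 3.41 in C2. All F3 arrays were below all C2 arrays, as for 6.51% of all probe sets. The mean level lay among the dimmest 25% of probe sets, and the limma adjusted p was 0.84.

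The epimerase and O-sulfotransferases, which act after the NDST enzymes, had a median of -0.0073 over 12 genes, and 0 passed. HS2ST1, which sulfates uronic acids, had levels of 6.54, 6.59 and 6.79 in F3, against 6.61, 6.85 and 6.86 in C2, a change of -0.14 (SE 0.09). HS6ST2, a glucosamine sulfotransferase, was at -0.08 and had a low mean level of 2.44 in F3 and 2.52 in C2. HS3ST6, another glucosamine sulfotransferase, was at 0.11 (SE 0.08).

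Core proteins that carry the chain had a median of -0.02 over 11 genes, again with 0 past the threshold. The glypican GPC1 had levels of 9.78, 10.00 and 9.99 in F3, against 9.63, 9.86 and 9.78 in C2. It was at 0.17 (SE 0.08, limma adjusted p = 0.97). The glypican GPC4 was at -0.14 (SE 0.11) and the syndecan SDC1 at -0.08 (SE 0.08).

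The genes that edit or degrade the chain had a median of -0.04 over 10 genes, with 0 past the threshold. GUSB, the lysosomal beta-glucuronidase, had 9.40, 9.43 and 9.37 in F3, against 9.51, 9.63 and 9.51 in C2. All F3 arrays were below all C2 arrays, as for 6.51% of all probe sets, and the change of -0.15 (SE 0.06) had a limma adjusted p of 0.84. IDS, the iduronate sulfatase, was at -0.28 (SE 0.13), with its other probe set at -0.02. IDUA, the iduronidase, was at 0.09 (SE 0.05), with all F3 arrays above all C2 arrays. Groups lay apart in either direction for 10.3% of all probe sets.

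The supply of precursors and sulfate donor had a median of 0.0029 over 12 genes, with 0 past the threshold, and held the largest single change of the pathway. PAPSS2, which makes the sulfate donor PAPS used by all sulfotransferases including the NDST enzymes, had log2 levels of 4.47, 4.13 and 4.42 in F3, against 4.80, 4.88 and 4.80 in C2. All F3 arrays were below all C2 arrays, a pattern of 6.51% of probe sets, and the change was -0.49 (SE 0.09, limma adjusted p = 0.19). The related PAPS synthase gene PAPSS1 and the transporters are among the other 11 genes, whose changes lay between -0.10 and 0.17. UAP1, which makes UDP-N-acetylglucosamine, was highest of these at 0.17 (SE 0.07), and SLC35D1, a transporter of UDP-glucuronic acid, was at 0.12 (SE 0.06). For SLC35D1 all F3 arrays were above all C2 arrays, where 10.3% of all probe sets had groups apart in either direction.

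The chondroitin sulfate polymerases, which build the alternative chain on the same linkage region, had a median of -0.02 over 6 genes, with 0 past the threshold. CHSY1, a chondroitin synthase, was at -0.16 (SE 0.13), and CSGALNACT1, which starts the chondroitin chain, was at -0.03 (SE 0.07). CHSY3 was at 0.09 by one probe set and at -0.12 by the other, both at low levels.

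**Figure D4:**
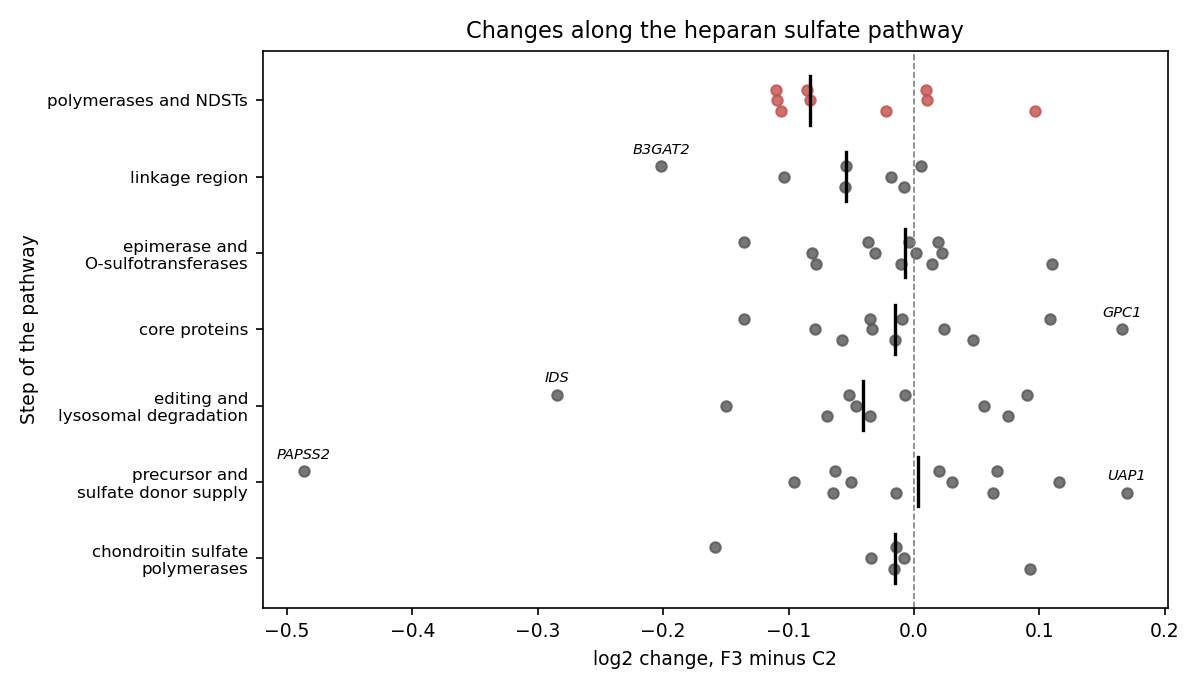
Log2 change, F3 minus C2, of each measured gene (points) in 7 steps of the pathway, with the median of each step as a black line; the 9 polymerase and NDST genes are in red. These 9 lie between -0.11 and 0.10, and PAPSS2 at -0.49 is the lowest point, short of the threshold.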

How the data were processed

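Trizol RNA was made into biotinylated cRNA by the Affymetrix procedure, per the labels' protocols. The deposited values are log2 expression, 1 value per probe set and array. Per the submitters' processing notes they were made with RMA, of which no version, build or set of arrays is stated. RMA makes array distributions alike and shrinks changes of dim probe sets.

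Accessions, versions removed, were looked up in RefSeq's gene table (GRCh38.p14); 1043 of 1259 probe sets matched 1 symbol and 216 stayed unnamed but tested. A gene with several probe sets was represented by the one with the highest mean. F3 was compared with C2 in limma 3.58.1 (R 4.3.3, lmFit, eBayes, two-sided), adjusted over all probe sets, threshold 0.05. Every SE, interval and p for a single gene is from it, except where the replicate block or a left-out array is named. The script was tested on simulated data.

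Members and lists were chosen with earlier results of these data known. The genes named were all 9 members, the 3 with the smallest p in each other list, and the 2 most alike in pattern; 1 gene that the rule names is not reported here. Replicate numbers are shared between populations, with a shared label suffix: deviations of same-numbered arrays correlated with r = 0.52, 0.18 and 0.26, so they were taken as pairs. For unlike numbers r ran from -0.38 to 0.15, the highest being near the 0.18 of number 2. Deviations from a mean of 3 arrays sum to 0, which pushes some of these values below 0. The fit without a block was the planned one. Alternatives were the replicate block, median centring, quantile normalization, a filter on the dimmest 25%, a trend with robust eBayes, array weights, each array left out, a threshold of 0.10, averaged probe sets per gene and, for differences between isoenzymes, pairwise differences.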

Additional observations from a re-analysis of the deposited data

How the results depend on the processing

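No member passed the threshold under any of the 12 alternatives tried for it (lowest limma adjusted p 0.73, with the replicate block), and 0 pathway genes passed under any of 14. Of 106 member values, 97 kept their direction and 9, in 5 genes (EXTL1, EXTL3, NDST1, NDST2 and NDST3), turned. The cause was not tested. The replicate block, the trend with robust eBayes and the filter on dim probe sets cannot alter a log2 change. Their values are among those that kept direction and say nothing of its stability. With array weights NDST1 was at -0.049. Over single arrays left out in turn the log2 change ran from -0.22 to -0.02 for EXT1, -0.18 to -0.05 for EXT2, -0.085 to 0.063 for EXTL1, -0.17 to -0.01 for EXTL2, -0.14 to 0.00014 for EXTL3, -0.085 to 0.15 for NDST1, -0.22 to 0.037 for NDST2, -0.059 to 0.053 for NDST3 and 0.02 to 0.18 for NDST4. The difference between isoenzymes ran from -0.06 to 0.06 (EXT1 minus EXT2) and from -0.12 to 0.37 (NDST1 minus NDST2). Pairing by replicate number (the replicate block) cannot alter their means of 0.0012 and 0.12, so it was no check of them. The table as a whole had 1 probe set past the threshold, 2 with the replicate block, 2 at an adjusted p under 0.10 and 0 to 2 with single arrays left out (0 without F3 replicate 1, C2 replicate 2 or C2 replicate 3; 2 without F3 replicate 2). The block changed no call among the genes described. All 9 genes have 1 probe set, so the mean over probe sets is the same value, and NDST3 and NDST4 have no value without the dimmest 25%. The number of arrays and the absence of a detection call limit what can be said of dim genes.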
